A study of Mus musculus with 6 samples.

Results

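The Mas-related G protein-coupled receptors (Mrgpr genes) are a family of sensory receptors found mainly in small-diameter neurons of the dorsal root ganglia (DRG), where different members mark neurons that respond to noxious touch, itch-inducing substances or gentle stroking. The genes described here are Mrgprd, Mrgprx1, Mrgpra3, Mrgprb4, Mrgprb5, Mrgpre and Mrgprf, 7 of the 54309 genes in the deposited table. They were taken from it by gene symbol, a rule that uses no measured value, but the members were chosen with earlier results of these data known. All 7 were found, and 6 of them had a mean of at least 1 TPM (a length-corrected share of the library, in which all transcripts sum to 1000000) over all libraries and were tested.

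The libraries came from neuron-enriched DRG cells of lumbar levels 4 to 6 of C57bl/6 mice, all male and 8 to 10 weeks old. A viral vector (AAV, an adeno-associated virus) with leptin together with GFP (AAV-Leptin-GFP, 3 libraries) or GFP alone (AAV-GFP, 3 libraries) had been injected into both sciatic nerves 4 weeks before a dorsal column axotomy, which cuts the central branch of sensory axons. All animals were injured, and cells were collected 24 hours later, so the comparison asks what leptin delivery did in DRG cells of injured animals. Whether the neurons that hold these receptors had their own axons cut was not measured. Neither the promoter of the vectors nor the number of animals per library is stated. The spread that p-values rest on is that between libraries, which may in part be technical.

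Receptors of this family couple to G proteins that act on phospholipase C or inhibit adenylyl cyclase, and in itch neurons their signal opens TRP channels such as Trpa1. In the mouse most of the sensory members need the transcription factor Runx1 for their expression. Most of the genes lie in 1 cluster on chromosome 7, in which copies of the A, B and C subfamilies and many pseudogenes stand side by side.

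None of the 6 tested members passed the test over all genes (limma adjusted p under 0.05), which 1.61% of the 15108 tested genes did (233 genes, 1.54%, higher and 10 genes, 0.0662%, lower; between 4 and 420 genes in all with 1 library left out). Mrgprb5 was the 1 tested member with higher values in AAV-Leptin-GFP libraries, at 12.9 ± 3.85 TPM against 5.85 ± 1.62 TPM in AAV-GFP libraries (SD, n = 3 each), a fold change of 2.01 on the TPM + 1 scale. The other 5 tested members had estimates below 0, between -0.33 and -0.18 on the log2(TPM + 1) scale. At an unadjusted limma p under 0.05, 1 member was higher (Mrgprb5) and 1 lower (Mrgprb4), beside 11.3% and 8.19% of all tested genes (19.5% in either direction). The median log2 fold change of the 6 members was -0.21, against -0.00016 over all tested genes. In bulk RNA, fewer cells of a type and less RNA per cell cannot be told apart.

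**Figure D1:**
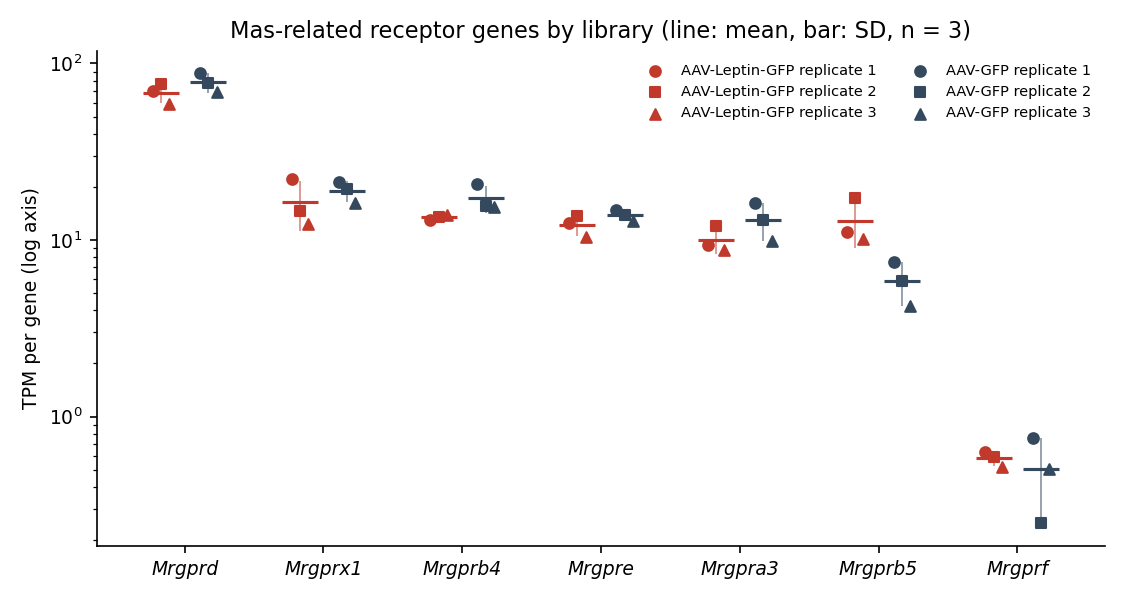
TPM of the 7 receptor genes in each library on a log axis, AAV-Leptin-GFP in red to the left of AAV-GFP in dark blue, with marker shapes for replicates 1 to 3, lines for group means and bars for the SD. Mrgprb5 is the gene whose AAV-Leptin-GFP points, 10.2 to 17.3 TPM, all lie above its AAV-GFP points, 4.22 to 7.46 TPM, and for Mrgprb4 the order is the opposite.

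The Mrgprb5 and Mrgprb4 genes are close relatives, and their sequences bear on how far their values can be separated. Mrgprb5 (ENSMUSG00000070551, chromosome 7, 48167983 to 48169019, minus strand, positions from GENCODE M21 on GRCm38) and Mrgprb4 (ENSMUSG00000070550, 48198070 to 48199288, minus strand) each have a single exon, and 29050 bases separate them. Their coding sequences, of 966 and 963 nt without the stop codon, were identical at 84.5% of aligned positions, whereas the next most similar pair of members, Mrgprx1 and Mrgprb4, reached 63.5%. The stretch of 150 aligned coding bases that differs most between them shows what separates reads of one gene from reads of the other. It lies at chr7:48168395-48168544 in Mrgprb5 and chr7:48198591-48198740 in Mrgprb4, both on the minus strand, and capitals mark the 35 bases that differ.
Mrgprb5: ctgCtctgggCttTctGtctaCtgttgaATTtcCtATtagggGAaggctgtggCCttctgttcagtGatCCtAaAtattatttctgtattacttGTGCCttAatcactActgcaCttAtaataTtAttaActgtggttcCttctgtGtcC
Mrgprb4: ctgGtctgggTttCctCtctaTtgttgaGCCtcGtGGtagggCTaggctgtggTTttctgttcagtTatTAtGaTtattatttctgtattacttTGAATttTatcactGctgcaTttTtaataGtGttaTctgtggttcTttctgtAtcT

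The longest run shared by the pair of transcripts is 57 bases of coding sequence at chr7:48168069-48168125 in Mrgprb5. It is shown because a read that falls entirely inside it fits both genes.
Mrgprb5 and Mrgprb4: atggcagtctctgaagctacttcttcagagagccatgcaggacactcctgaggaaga

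Salmon, which the submitters' processing notes name, divides reads among transcripts that share sequence. Of the 1007 different 31-base words in the Mrgprb5 transcript, 75 (7.45%) also occur in a transcript of another gene, 58 of them in Mrgprb4. For Mrgprb4 the share was 10.6% of 1189 words. It was 22.2% for Mrgprx1 and 21.4% for Mrgpra3, and 2.60% for Mrgpre. No word of Mrgprd or Mrgprf occurs in another gene. The gene that shares most words with Mrgprx1, Gm18348 (114 of 255 shared words), was listed at 0 in all libraries. The one that shares most with Mrgpra3, Mrgpra4 (183 of 271 shared words), averaged 0.121 TPM. In all, 9 genes share words with Mrgprx1 and 14 with Mrgpra3, and the levels of the others were not compared. Mrgprb5 and Mrgprb4 share words with each other and both had signal. How far read division moved these values was not tested. The 2 family copies Mrgpra2a and Mrgpra2b share far more, 92.4% and 87.0% of their words with other genes, and their separate values are uncertain.

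Mrgprb5 had 11.1, 17.3 and 10.2 TPM in libraries 1, 2 and 3 of AAV-Leptin-GFP, against 7.46, 5.86 and 4.22 TPM in libraries 1, 2 and 3 of AAV-GFP. The groups do not overlap, and the highest value, in AAV-Leptin-GFP replicate 2, is well above the other 5. The log2 fold change was 1.01 (SE 0.233, 95% interval 0.46 to 1.56), and its limma adjusted p = 0.0790 missed the threshold. It was lowest, at 0.79, with AAV-Leptin-GFP replicate 2 left out. Of all tested genes, 1.80% had a log2 fold change at least as large. Of the 6 tested members 2, Mrgprb5 and Mrgprb4, had groups that do not overlap, beside 25.2% of all tested genes (13.3% higher and 11.9% lower).

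Mrgprb4, which marks unmyelinated neurons that respond to stroking of hairy skin, had 12.9, 13.4 and 13.9 TPM in libraries 1, 2 and 3 of AAV-Leptin-GFP, against 20.7, 15.6 and 15.4 TPM in libraries 1, 2 and 3 of AAV-GFP. The AAV-Leptin-GFP values lie close together, all below the lowest AAV-GFP value, and AAV-GFP replicate 1 stands above the other 2 of its group. The log2 fold change was -0.32 (SE 0.117, 95% interval -0.60 to -0.05, limma adjusted p = 0.193). With AAV-GFP replicate 1 left out it was -0.19. No gene of GENCODE M21 overlaps either of the 2 relatives.

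The ratio of the 2 relatives within a library does not depend on how libraries are scaled. All Mrgprb5 values were higher and all Mrgprb4 values lower with AAV-Leptin-GFP. Ratios of the pair that do not overlap follow from this and are no separate evidence. Mrgprb5 per Mrgprb4 was 0.860, 1.29 and 0.730 in libraries 1, 2 and 3 of AAV-Leptin-GFP, and 0.361, 0.376 and 0.275 in libraries 1, 2 and 3 of AAV-GFP. In AAV-Leptin-GFP replicate 2 Mrgprb5 was the higher of the pair, and in the other 5 libraries Mrgprb4 was. Set against Mrgprd in the same library, Mrgprb5 stood at 0.186 ± 0.0358 with AAV-Leptin-GFP and 0.0739 ± 0.0117 with AAV-GFP (SD, n = 3). These ratios do not overlap either, which rests on the same Mrgprb5 values and is no separate evidence. Mrgprb4 set against Mrgprd stood at 0.199 ± 0.0314 with AAV-Leptin-GFP and 0.220 ± 0.0173 with AAV-GFP, with overlap.

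**Figure D2:**
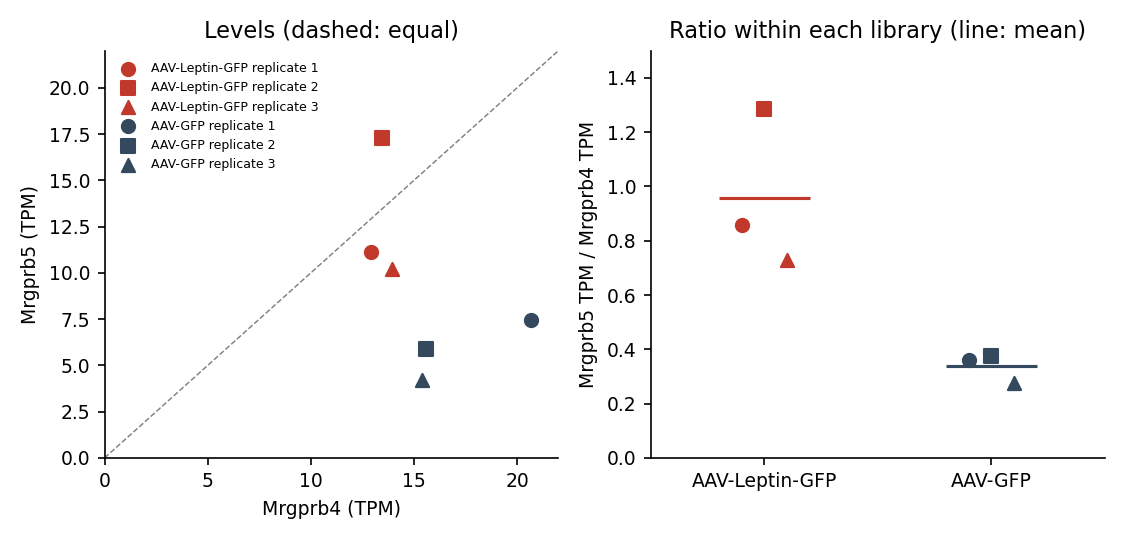
Left, Mrgprb5 against Mrgprb4 in TPM, 1 point per library, with a dashed line of equal levels; right, the ratio of the 2 in each library, with lines for group means. The 3 AAV-Leptin-GFP ratios (0.730 to 1.29) lie above the 3 AAV-GFP ratios (0.275 to 0.376), and 1 library, AAV-Leptin-GFP replicate 2, lies above the dashed line. The gap between the ratios follows from the values of the 2 genes, which each separate the groups.

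The DNA upstream of the 2 genes is similar as well, and it is shown because the estimates of the pair lay on opposite sides of 0. The nearest of the 140 bases below lies 77 bases upstream of the annotated transcript start of Mrgprb5 (chr7:48169096-48169235) and 1 base upstream of that of Mrgprb4 (chr7:48199289-48199428). They are minus-strand sequences from RefSeq (GRCm38.p6), identical at 110 of 140 positions, and capitals mark the bases that differ.
Mrgprb5: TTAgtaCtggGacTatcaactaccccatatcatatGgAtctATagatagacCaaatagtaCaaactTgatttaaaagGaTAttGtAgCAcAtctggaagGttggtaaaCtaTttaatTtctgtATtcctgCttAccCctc
Mrgprb4: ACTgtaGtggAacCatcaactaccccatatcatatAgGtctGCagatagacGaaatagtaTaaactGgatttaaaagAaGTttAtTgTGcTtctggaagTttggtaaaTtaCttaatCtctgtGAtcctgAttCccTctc

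RefSeq windows of 250 bases before to 50 after the gene start were matched for 5 members (Mrgprd, Mrgprx1, Mrgprb4, Mrgprb5 and Mrgpre). For Mrgprb5 and Mrgprb4 this start (48168985 and 48199178) is the first coding base. Their GENCODE M21 transcript starts lie further upstream (48169019 and 48199288), so these windows are not placed on a transcript start. None of the 5 windows held, on either strand, the letters TTCNNNGAA, the half-sites of STAT factors, found in 8.30% of 32851 mouse windows. None held TGANTCA, the AP-1 motif (7.81% of windows), TGACGTCA, the cyclic AMP response element (1.79%), or TGTGGT, the core of the Runx motif (16.8%). CACGTG, the E-box (7.15%), and a CArG box of SRF (0.0639%), were absent as well, and TATAAA (13.6%) occurred once, in the window of Mrgprb4. Absence says only that these letters are not in these windows.

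Mrgprd, the receptor for beta-alanine that marks nonpeptidergic nociceptors ending in the epidermis, was the most abundant member. It had 69.4, 76.1 and 59.3 TPM in libraries 1, 2 and 3 of AAV-Leptin-GFP, against 88.1, 77.6 and 68.7 TPM in libraries 1, 2 and 3 of AAV-GFP. The groups overlap, with AAV-GFP replicate 1 highest and AAV-Leptin-GFP replicate 3 lowest. The log2 fold change was -0.19 (SE 0.115, 95% interval -0.46 to 0.08, limma adjusted p = 0.413). Leaving out AAV-Leptin-GFP replicate 3 gave -0.10 and leaving out AAV-GFP replicate 1 also gave -0.10. By its mean of 73.2 TPM it ranked 2634 among the 15108 tested genes. It lies on chromosome 7 at 145314835 to 145324086 on the plus strand (ENSMUSG00000051207).

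Mrgprx1 (ENSMUSG00000070552, chromosome 7, 48020971 to 48027597, minus strand, 2 exons), which responds to the opioid-precursor peptide BAM8-22 in itch neurons, had 22.2, 14.7 and 12.3 TPM in libraries 1, 2 and 3 of AAV-Leptin-GFP, against 21.3, 19.6 and 16.2 TPM in libraries 1, 2 and 3 of AAV-GFP. AAV-Leptin-GFP replicate 1 holds the highest value of all 6 libraries and replicate 3 of the same group the lowest, so the groups overlap fully. The log2 fold change was -0.23 (SE 0.204, 95% interval -0.71 to 0.24, limma adjusted p = 0.580). Leaving out AAV-Leptin-GFP replicate 1 gave -0.46, and leaving out replicate 3 of that group gave -0.06.

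Mrgpra3 (ENSMUSG00000078698, chromosome 7, 47588950 to 47601372, minus strand, 2 exons), the chloroquine receptor of the same itch neurons, had 9.34, 12.02 and 8.75 TPM in libraries 1, 2 and 3 of AAV-Leptin-GFP, against 16.2, 12.98 and 9.91 TPM in libraries 1, 2 and 3 of AAV-GFP. The spread within AAV-GFP is wide, and its lowest library lies inside the AAV-Leptin-GFP range. The log2 fold change was -0.33 (SE 0.183, 95% interval -0.76 to 0.09, limma adjusted p = 0.371). Leaving out AAV-GFP replicate 1 gave -0.17, and leaving out replicate 3 of that group gave -0.50.

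Mrgpre (ENSMUSG00000048965, chromosome 7, 143778363 to 143784500, minus strand, 2 exons), an orphan receptor, had 12.5, 13.7 and 10.4 TPM in libraries 1, 2 and 3 of AAV-Leptin-GFP, against 14.8, 13.8 and 12.9 TPM in libraries 1, 2 and 3 of AAV-GFP. The groups overlap, with AAV-Leptin-GFP replicate 2 between the 2 lower AAV-GFP libraries. The log2 fold change was -0.18 (SE 0.109, 95% interval -0.43 to 0.08, limma adjusted p = 0.428), and -0.08 with AAV-Leptin-GFP replicate 3 left out. Gm22064 overlaps the gene on the opposite strand, and the strand setting of the quantification is not stated.

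Mrgprf (ENSMUSG00000031070, chromosome 7, 145300828 to 145309557, plus strand), another orphan receptor, was near the bottom of the range and was not tested by limma. It had 0.628, 0.592 and 0.521 TPM in libraries 1, 2 and 3 of AAV-Leptin-GFP, against 0.758, 0.249 and 0.507 TPM in libraries 1, 2 and 3 of AAV-GFP. The groups overlap, and the difference in mean log2(TPM + 1) was 0.08 (exact two-sided permutation p = 0.7, where 0.1 is the smallest value 3 against 3 libraries can give). With AAV-GFP replicate 2 left out the difference was -0.04. In that library the signal was listed on another transcript of the gene than in the other 5 libraries. Mrgprf lies next to Mrgprd on the same strand, with 5277 bases between them, yet Mrgprd was 110.5 to 312 times as high per length in the same library.

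The order of mean TPM over all 6 libraries was Mrgprd, Mrgprx1, Mrgprb4, Mrgpre, Mrgpra3, Mrgprb5 and Mrgprf. Mrgprd was above Mrgprx1, and Mrgprb5 above Mrgprf, in 6 of 6 libraries. The neighbours Mrgprx1 and Mrgprb4, Mrgprb4 and Mrgpre, and Mrgpre and Mrgpra3 kept their order in 5 of 6 libraries each, with overlapping ranges. Mrgprb5 was above Mrgpra3 in 3 of 3 AAV-Leptin-GFP libraries and below it in 3 of 3 AAV-GFP libraries.

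Among the AAV-Leptin-GFP libraries replicate 2 was the highest for 4 of 6 tested members, beside 41.1% of all tested genes, and replicate 3 the lowest for 5 of 6, beside 48.5%. Among the AAV-GFP libraries replicate 1 was the highest and replicate 3 the lowest for all 6 tested members, an order that 20.8% of all tested genes had. A list of 18 genes of nonpeptidergic nociceptors, drawn up without any of the receptor genes, had the same highest and lowest libraries by summed TPM. The sums were 2052, 2063 and 1851 in libraries 1, 2 and 3 of AAV-Leptin-GFP and 2301, 2185 and 2010 in libraries 1, 2 and 3 of AAV-GFP. Per 1000 TPM of that list, Mrgprd stood at 34.3 ± 2.44 with AAV-Leptin-GFP and 36.0 ± 2.09 with AAV-GFP, and Mrgprb5 at 6.43 ± 1.68 and 2.68 ± 0.572 (SD, n = 3). Mrgprb4 stood at 6.78 ± 0.662 with AAV-Leptin-GFP and 7.92 ± 0.952 with AAV-GFP on that scale, where its groups overlap. Per 1000 TPM of 14 pan sensory neuron genes Mrgprb4 stood at 0.799 ± 0.0396 with AAV-Leptin-GFP and 0.966 ± 0.179 with AAV-GFP, without overlap.

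**Figure D3:**
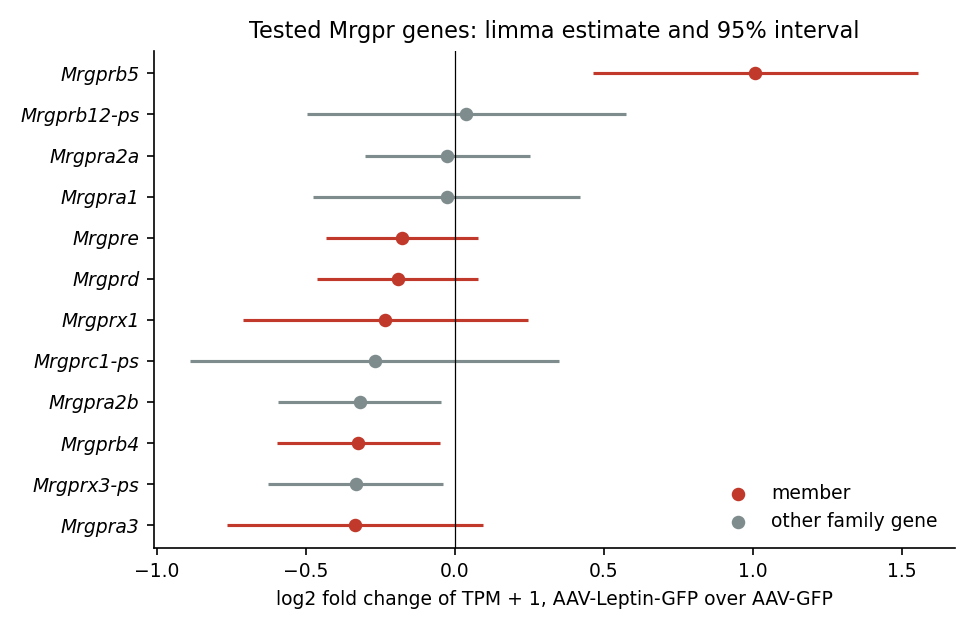
limma log2 fold change of TPM + 1, AAV-Leptin-GFP over AAV-GFP, with its 95% interval for the 12 tested Mrgpr genes, members in red and other family genes in grey. Mrgprb5, at 1.01, stands apart on the right, while the other 11 estimates lie between -0.33 and 0.04.

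Beyond the members, 27 further genes of the family were in the table (symbols starting with Mrgpr, and Mas1, the founding gene), of which 6 passed the filter and none passed the test (2 were lower at an unadjusted limma p under 0.05). The most abundant of these was Mrgprx3-ps, annotated as an unprocessed pseudogene, with 54.1, 59.1 and 48.2 TPM in libraries 1, 2 and 3 of AAV-Leptin-GFP, against 80.8, 65.9 and 58.4 TPM in libraries 1, 2 and 3 of AAV-GFP. Its groups overlap by a small margin (log2 fold change -0.33, limma adjusted p = 0.206), and its level was second only to Mrgprd in the family, with 14.8% of its words shared with other genes. Mrgpra2b averaged 23.1 ± 3.51 TPM with AAV-Leptin-GFP and 28.9 ± 2.83 TPM with AAV-GFP (-0.32, limma adjusted p = 0.197). Mrgpra2a stood at -0.02, a sign that flipped when mitochondrially encoded genes were removed. Mrgprc1-ps stood at -0.27, Mrgpra1 at -0.03 and Mrgprb12-ps at 0.04, the last below 0 under quantile normalization.

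Of the 21 family genes under the filter, 9 were listed at 0 in every library, and no other value exceeded 1.06 TPM. Mrgprb2, the receptor of mast cells for basic secretagogues, stood near 0, with 0.0537, 0.170 and 0.0654 TPM in libraries 1, 2 and 3 of AAV-Leptin-GFP, against 0.0506, 0.0551 and 0.0607 TPM in libraries 1, 2 and 3 of AAV-GFP. The family sum was 226 ± 24.6 TPM with AAV-Leptin-GFP and 260 ± 36.8 TPM with AAV-GFP, and Mrgprd held 30.2% ± 0.534 and 30.1% ± 0.625 of it.

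The main cluster spans 47185707 to 48685614 of chromosome 7 and holds 50 annotated genes, 28 of them of the family. Of these 50 genes 13 reached a mean of 1 TPM, 10 of them of the family. The nearest annotated neighbours of Mrgprb5 were almost silent: Gm28665 was listed at 0 in all libraries, and Gm18352, which lies between Mrgprb5 and Mrgprb4, had 0.143 TPM in replicate 2 of AAV-Leptin-GFP and 0 elsewhere. The pseudogene Gm18349 had the second-highest estimate of the cluster, a log2 fold change of 0.33 with overlapping groups (limma adjusted p = 0.534), and the pseudogene Gm7255 stood at 0.00.

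**Figure D4:**
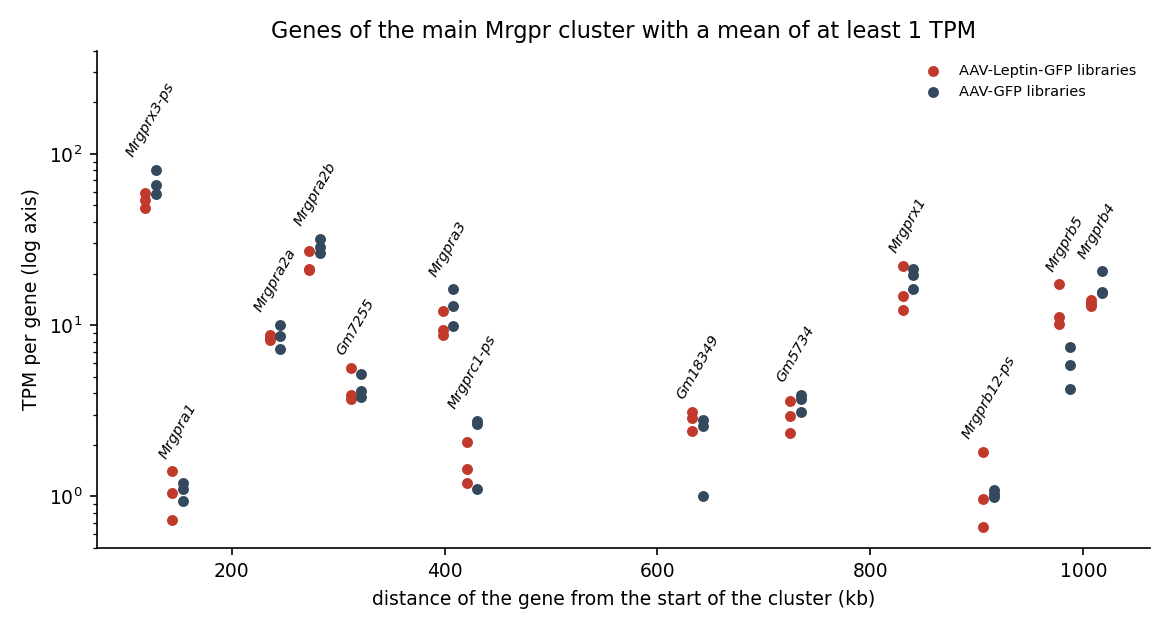
TPM on a log axis of the 13 genes of the cluster with a mean of at least 1 TPM, by distance from the start of the cluster in kb, AAV-Leptin-GFP libraries in red to the left of AAV-GFP libraries in dark blue. Mrgprb5 is the gene of the plot with all AAV-Leptin-GFP values above all AAV-GFP values.

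The genes that accompany the receptors in sensory neurons were taken in 6 lists, and none of their tested genes passed the test over all genes. Of 18 genes of nonpeptidergic nociceptors 17 had estimates below 0, beside 50.1% of all tested genes, and the median was -0.12. At an unadjusted limma p under 0.05, 4 were lower and 0 higher, beside 8.19% and 11.3% of all tested genes. The protein kinase C theta gene Prkcq averaged 34.7 ± 2.92 TPM with AAV-Leptin-GFP and 42.5 ± 2.66 TPM with AAV-GFP (-0.29, limma adjusted p = 0.112). The potassium channel partner Kcnip4 stood at -0.21 (adjusted p = 0.170), the semaphorin receptor Plxnc1 at -0.20 (adjusted p = 0.204) and the complement regulator Cd55 at -0.16 (adjusted p = 0.213).

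Of 24 tested genes of itch neurons and itch signalling 16 lay below 0 and 8 above, beside 50.1% of all tested genes below 0. The median was -0.05 (2 lower at an unadjusted p under 0.05, beside 8.19% of all tested genes). Trpa1, the channel that Mrgpra3 signalling opens, averaged 18.4 ± 1.58 TPM with AAV-Leptin-GFP and 23.7 ± 3.13 TPM with AAV-GFP (-0.34, limma adjusted p = 0.147). Among the G protein subunits of the Gq class, Gnaq stood at -0.16 (adjusted p = 0.158), Gna11 at -0.11 (adjusted p = 0.372) and Gna14 at -0.22 (adjusted p = 0.467). None of these values passed the threshold.

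Of 10 genes of C-low-threshold mechanoreceptors, another type of unmyelinated touch neuron, 9 lay below 0, beside the same 50.1%. The median was -0.07 (1 lower at an unadjusted p under 0.05, beside the same 8.19%). The vesicular glutamate transporter Slc17a8 averaged 3.73 ± 0.608 TPM with AAV-Leptin-GFP and 4.96 ± 0.676 TPM with AAV-GFP (-0.33, limma adjusted p = 0.255). The secreted protein Tafa4 stood at -0.28, the mechanosensitive channel Piezo2 at -0.09 (0.03 with protein-coding transcripts only) and the neurturin receptor Gfra2 at -0.06 (0.05 without AAV-GFP replicate 1).

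Among 15 tested transcription factors that set sensory neuron types, 7 lay above 0 and 8 below, beside 50.1% of all tested genes below 0. The median was -0.05 (1 higher at an unadjusted p under 0.05, beside 11.3% of all tested genes). Runx1 lay between 17.1 and 23.3 TPM with AAV-Leptin-GFP and between 19.0 and 24.8 TPM with AAV-GFP, a log2 fold change of -0.14 (limma adjusted p = 0.618). The estimate ran from -0.26 with AAV-GFP replicate 3 left out to -0.03 with AAV-Leptin-GFP replicate 3 left out. Its groups overlap, and replicate 3 was the lowest of both groups. The LIM homeobox gene Isl1 stood at 0.14 (adjusted p = 0.182), but at 0.0154 with protein-coding transcripts only. Meis2 stood at 0.16, Shox2 at 0.23 and Prrxl1 at -0.13.

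All 13 peptidergic nociceptor genes lay below 0, beside 50.1% of all tested genes, with a median of -0.25. Of them 7 were lower at an unadjusted limma p under 0.05 (8.19% of all tested genes were). Of 15 genes of large-diameter neurons 6 lay below 0, with a median of 0.03. At an unadjusted limma p under 0.05, 0 of these were higher and 0 lower. Calca, the CGRP gene, averaged 3235 ± 328 TPM with AAV-Leptin-GFP and 4141 ± 128 TPM with AAV-GFP (-0.36, limma adjusted p = 0.0603), and Calcb stood at -0.22, the substance P precursor Tac1 at -0.46 and galanin, Gal, at -0.27. Kcna1 stood at 0.20, Ntrk2 at -0.10, Nefh at 0.09 and Runx3 at 0.17. Over the 6 lists the highest estimate was 0.23, for Shox2, below that of Mrgprb5.

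For each tested member the 3 genes whose mean-centred log2(TPM + 1) values over the 6 libraries lay closest to its own, by root mean square distance, were named. For Mrgprb5 these were Lmbr1l (distance 0.119), Csf2ra (0.128) and Tnfrsf25 (0.135), and for Mrgprd Aqp1 (0.0316), Adcy5 and Ube2ql1. For Mrgprx1 they were Tusc1, the neuropeptide gene Nts and Foxp4, and for Mrgpra3 Car8, Dclre1b and Mrgprx3-ps. For Mrgprb4 they were Smim5, Vps13d and Mrap2, and for Mrgpre Lrrc8b, Celf4 and 1700037H04Rik. Among members the closest pair was Mrgprd and Mrgpre, at a distance of 0.0487. In all, 15108 genes were compared over 6 libraries.

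The delivered gene, Lep, had 0.751, 0.547 and 3.56 TPM in libraries 1, 2 and 3 of AAV-Leptin-GFP and was listed at 0 with AAV-GFP. Its receptor Lepr averaged 1.37 ± 0.239 TPM with AAV-Leptin-GFP and 1.13 ± 0.441 TPM with AAV-GFP (0.17, limma adjusted p = 0.698). AAV-Leptin-GFP replicate 2, which held the most Mrgprb5, held the least Lep, but the Lep values of replicates 1 and 2 were under 1 TPM. Lep was under the filter, and a relation between Lep and Mrgprb5 levels was not tested. The 14 pan sensory neuron markers summed to 16600 to 16970 TPM with AAV-Leptin-GFP and 17610 to 17990 TPM with AAV-GFP. The 11 satellite glia markers summed to 8389 to 9062 TPM with AAV-Leptin-GFP and 9335 to 10460 TPM with AAV-GFP, and the 11 Schwann cell markers to 1504 to 1624 TPM and 1690 to 1746 TPM in the same order. Each of these 3 sums was lower in all AAV-Leptin-GFP libraries (exact two-sided permutation p = 0.1 each, the smallest value possible). Even so, 4 of 11 Schwann, 3 of 11 satellite glia and 1 of 14 pan sensory markers had estimates above 0. Most of the satellite glia sum was Apoe, at 6229 ± 284 TPM with AAV-Leptin-GFP and 7164 ± 464 TPM with AAV-GFP. The 1 called marker, Egr2, a transcription factor of myelinating Schwann cells and also an activity-induced gene of neurons, was higher, at 13.04 ± 2.04 TPM with AAV-Leptin-GFP and 4.71 ± 0.532 TPM with AAV-GFP (log2 fold change 1.29, limma adjusted p = 0.0155). That call was lost with AAV-Leptin-GFP replicate 2 or 3 (adjusted p = 0.125 and 0.0645) or AAV-GFP replicate 2 or 3 (adjusted p = 0.0861 and 0.120) left out, where the estimate stayed between 1.22 and 1.37. No marker of the 9 cell type lists was at 0 in every library. The 7 mast cell markers summed to 5.96 to 9.52 TPM with AAV-Leptin-GFP and 6.02 to 13.9 TPM with AAV-GFP. The 5 red blood cell genes summed to 239, 374 and 1724 TPM in libraries 1, 2 and 3 of AAV-Leptin-GFP, against 257, 170.1 and 171 TPM in libraries 1, 2 and 3 of AAV-GFP. The part of these markers in the members' values was not tested.

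**Figure D5:**
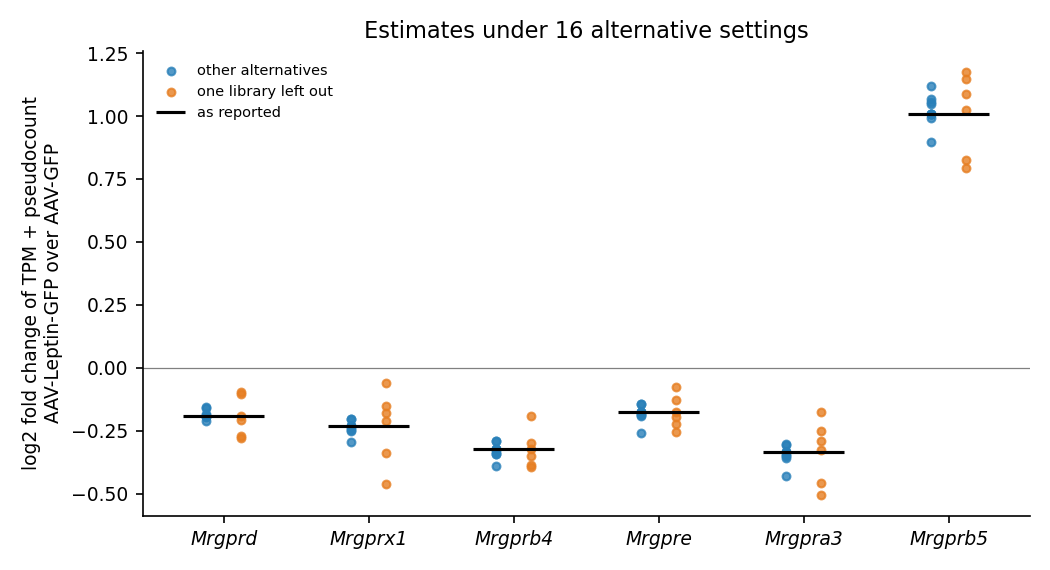
log2 fold change of the 6 tested members, AAV-Leptin-GFP over AAV-GFP, as reported (black line), with 1 library left out (orange) and under the other alternatives (blue). Mrgprb5 stays between 0.79 and 1.18, and the other 5 members stay below 0 under each of the 16 alternatives.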

How the data were processed

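The values are TPM per Ensembl transcript and library, deposited by the authors; each column sums to 1000000, so read depth is unknown and no counting intervals are given. The submitters' processing notes name, without roles, Salmon 1.6.0, DESeq2 1.34.0, Trim Galore 0.6.6 and FastQC 0.11.9, and the builds mm10 and GRCm38. No annotation release is stated. Of 140789 transcripts 97.4% occur by identifier in GENCODE M21, which gave positions and lengths.

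Transcript TPM were summed by gene, and limma 3.58.1 (R 4.3.3) tested log2(TPM + 1) of the 15108 genes whose mean reached 1 TPM (mean-variance trend, two-sided, no covariates, Benjamini-Hochberg adjustment, threshold 0.05). This scale understates changes of low genes. Single values were compared with exact permutation tests. On simulated data for these 15108 genes the test recovered 75 of 100 genes given a log2 change of 1 and 96 of 100 given 2, with 7 false calls. The simulated noise was independent between genes, with no effect shared within a library, so these counts need not hold for the real libraries. Sequences were aligned with Biopython 1.88 (match 1, mismatch -1, gap opening -3, extension -0.5), and shared words of 31 bases were counted over all GENCODE M21 transcripts.

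Named genes were the members, tested family genes, Lep, Lepr, Runx1, the 4 genes with the smallest p of each pathway list and the 3 nearest profiles per member. The rule named no gene from the cell type marker lists. Mrgprb2, Mrgpra4, Egr2, Apoe and the Gm genes lie outside this rule and were chosen after their values were seen. The members and lists were chosen with earlier results of these data known. Replicate numbers were not treated as pairs, and whether they pair the libraries is not known. Alternatives covered the pseudocount, filter, scaling, transcript class, trend, block and each library left out.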

Additional observations from a re-analysis of the deposited data

How the results depend on the processing

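No member, and none of the other family genes, passed the threshold under any of the 16 alternatives run, and each of the 6 tested members kept its sign in all of them. For Mrgprb5 the log2 fold change ranged from 0.79 (without AAV-Leptin-GFP replicate 2) to 1.18 (without AAV-GFP replicate 1), with limma p from 0.00127 to 0.0118 and adjusted p from 0.0649 to 0.240. Mrgprb4 ranged from -0.39 to -0.19, with an unadjusted p under 0.05 in 12 of 16. The number of genes called over all tested genes, 243, was 4 with no filter on low values, 91 with protein-coding transcripts only, 35 with no mean-variance trend and 74 with the replicate block, and it ranged from 4 to 420 with 1 library left out (10, 18 and 15 without AAV-Leptin-GFP replicates 1, 2 and 3, and 420, 4 and 5 without AAV-GFP replicates 1, 2 and 3). The deviations of same-numbered libraries from their group means correlated at 0.0341, -0.0699 and -0.0241, and the numbers were not treated as pairs. Such correlations cannot show that the libraries were unpaired. With the replicate block 0 members were called. At an unadjusted limma p under 0.05, 1 member was higher and 2 were lower with the block, beside 1 and 1 in the main fit. Of the genes of the 6 pathway lists 1, Calca, was called with a mean of at least 5 TPM (1 call) and with median-of-ratios size factors (1 call, -0.38). Egr2, a Schwann marker, kept its sign (1.18 to 1.44) and was not called with no filter on low values (limma adjusted p = 0.0661) or with any of 4 libraries left out (adjusted p from 0.0645 to 0.125). Signs flipped for Mrgpra2a (0.0058 without mitochondrially encoded genes, 0.0065 with protein-coding transcripts only, -0.1307 to 0.0782 with 1 library left out). They also flipped for Mrgprb12-ps (-0.1269 under quantile normalization, -0.1757 to 0.2042 with 1 library left out). Mrgpra1 ran from -0.1459 to 0.0932 with 1 library left out, with 0.0139 without AAV-GFP replicate 1. Piezo2 (0.031 with protein-coding transcripts only) and Gfra2 (-0.1488 to 0.0467 with 1 library left out) changed sign as well. The cause of these flips was not tested. Mrgprf was under the filter in all but the unfiltered fit (0.08, limma adjusted p = 0.815). With unknown depth, differences of low genes could not be given a detection limit.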
